A study of Mus musculus with 30 samples.

Results

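The 10 genes described here encode the 5 NF-kB subunits (Nfkb1, Nfkb2, Rela, Relb and Rel) and 5 of their inhibitors (Nfkbia, Nfkbib, Nfkbie, Nfkbiz and Tnfaip3). They were chosen by symbol, and all 10 were found once in each of the 3 deposited count tables, among 55154 gene identifiers shared by the tables. RNA had been sequenced from 30 libraries of satellite cells, which are the resident muscle stem cells, from the hind limbs of C57BL/6 mice, in 15 groups of 2 libraries. The study asked how the transcriptome of these cells changes as they leave quiescence and regenerate muscle.

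Fixation by perfusion of the animal with paraformaldehyde before sorting is described for the groups, but is in doubt for the group labelled oFISC. Old animals gave 3 groups. Cells labelled oASC came from muscle injured with BaCl2, a salt that kills muscle fibres, 2.5 days earlier. For oFISC the labels give BaCl2 injury together with the time point "freshly isolated". Whether these cells came from injured muscle, and whether they were fixed in place, is therefore uncertain. Cells labelled oQSC came from uninjured old muscle. Mice not labelled old, called younger here because the labels give no ages, supplied uninjured cells and cells taken 0.5, 1, 2, 4, 8, 16, 32 and 60 h and 7, 14 and 28 days after BaCl2 injury. The labels do not say whether the 2 libraries of a group came from separate animals. P-values therefore measure the spread between libraries, which may be technical. That spread was estimated jointly over the groups fitted together, so groups with unlike libraries widen it for the others too.

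NF-kB proteins act as dimers that are held in the cytoplasm by inhibitors of the IkB family. Cytokine and innate immune receptors activate the IkB kinases, which mark IkB for destruction, and the freed dimers then enter the nucleus and switch on target genes. Several of the inhibitors are themselves NF-kB targets, so their transcripts are widely read as a record of recent activity of the pathway. The non-canonical route, through the kinase encoded by Map3k14, processes the precursor made from Nfkb2 and releases dimers that contain RELB. In muscle, NF-kB activity is known for opposing the differentiation of myoblasts and for accompanying wasting.

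Promoters are shown for 5 members, because their transcripts follow different courses below and because kappa B sites in this window are the textbook link from subunits to inhibitors. Each window runs from 250 bases before to 50 bases after the start in RefSeq (GRCm38.p6), 5′ to 3′ along the gene's strand, and capitals mark matches to the 10-base kappa B consensus on either strand.
Nfkbia, chr12:55492598-55492897, minus strand: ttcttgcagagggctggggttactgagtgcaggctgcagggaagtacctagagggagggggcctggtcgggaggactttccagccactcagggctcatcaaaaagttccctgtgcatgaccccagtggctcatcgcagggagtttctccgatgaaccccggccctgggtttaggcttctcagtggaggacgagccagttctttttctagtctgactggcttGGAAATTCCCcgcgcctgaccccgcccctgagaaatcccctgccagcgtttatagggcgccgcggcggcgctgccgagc
Nfkbie, chr17:45555450-45555749, plus strand: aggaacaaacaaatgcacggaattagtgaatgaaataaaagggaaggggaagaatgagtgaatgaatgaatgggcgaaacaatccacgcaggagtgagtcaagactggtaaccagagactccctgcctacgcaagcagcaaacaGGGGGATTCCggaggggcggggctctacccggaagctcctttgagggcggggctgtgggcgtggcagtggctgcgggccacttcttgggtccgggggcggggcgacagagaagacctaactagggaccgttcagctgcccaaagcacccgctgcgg
Tnfaip3, chr10:19015361-19015660, minus strand: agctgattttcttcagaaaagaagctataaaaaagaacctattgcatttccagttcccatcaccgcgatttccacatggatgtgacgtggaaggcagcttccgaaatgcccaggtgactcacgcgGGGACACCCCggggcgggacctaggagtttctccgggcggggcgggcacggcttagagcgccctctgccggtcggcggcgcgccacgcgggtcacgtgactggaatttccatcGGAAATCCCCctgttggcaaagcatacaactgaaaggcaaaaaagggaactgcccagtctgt
Nfkb2, chr19:46304487-46304786, plus strand: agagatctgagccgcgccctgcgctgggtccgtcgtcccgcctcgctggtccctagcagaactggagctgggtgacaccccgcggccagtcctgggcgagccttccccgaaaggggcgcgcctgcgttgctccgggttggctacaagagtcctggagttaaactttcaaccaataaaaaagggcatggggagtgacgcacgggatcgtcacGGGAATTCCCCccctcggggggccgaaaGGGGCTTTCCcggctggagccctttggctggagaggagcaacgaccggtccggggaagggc
Rela, chr19:5637291-5637590, plus strand: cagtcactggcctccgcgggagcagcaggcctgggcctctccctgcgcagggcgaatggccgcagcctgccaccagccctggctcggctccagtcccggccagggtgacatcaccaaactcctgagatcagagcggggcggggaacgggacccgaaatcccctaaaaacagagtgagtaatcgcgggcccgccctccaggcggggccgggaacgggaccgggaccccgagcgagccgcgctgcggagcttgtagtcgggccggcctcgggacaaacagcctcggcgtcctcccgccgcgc
The match in Nfkbia began 29 bases before the start and that in Nfkbie 106 bases before it. Tnfaip3 held 2 matches, 125 and 12 bases before the start, and Nfkb2 held 2, at 39 and 11 bases. Rela held none. RefSeq lists other starts for 2 of these genes, and the window listed first is printed: Tnfaip3 has 1 further window, with no match, and Nfkb2 has 2 further ones, with 2 matches and 1. The consensus was found in 8.46% of 32851 RefSeq windows of this length, so a match is a description of these letters and not evidence of binding. RefSeq windows were matched for 7 of the 10 members; Rel had a match 92 bases before its start and Nfkbib none, and Nfkb1, Relb and Nfkbiz were not matched.

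The members lie on 8 chromosomes. Positions in GRCm38 are chr3:135584655-135691547 for Nfkb1, chr19:46304320-46312385 for Nfkb2, chr19:5637483-5648130 for Rela, chr7:19606217-19629438 for Relb and chr11:23736847-23770970 for Rel. The inhibitors lie at chr12:55489410-55492647 (Nfkbia), chr7:28758251-28767512 (Nfkbib), chr17:45555703-45563169 (Nfkbie), chr16:55811375-55838899 (Nfkbiz) and chr10:19000910-19015657 (Tnfaip3). Exons of Nfkb2 overlap genes on the other strand by 830 bases and those of Nfkbib by 356. The strand that was counted is not given in the sources used here, so a part of their counts may belong to the overlapping genes.

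Totals ran from 9.18 to 57.4 M counts per library. Pax7, the defining marker of satellite cells, reached 1746 and 1555 CPM (counts scaled to a common library total, with TMM factors over all 30 libraries) in uninjured cells. At 0.5, 1, 2 and 4 h the 2 libraries of each group stood apart. Library 2 at 0.5 h, library 2 at 1 h, library 1 at 2 h and library 2 at 4 h held 1508, 1789.5, 1882 and 2165 CPM of Myod1, which encodes a transcription factor of committed myoblasts, and the other libraries of these groups held 119, 162, 82.7 and 88.3 CPM. Both libraries at 8 h were high, at 3346 and 3199.6 CPM, and uninjured cells held 41.4 and 50.8 CPM. Libraries 1 and 2 held 2481 and 1391 CPM of Myod1 at 16 h and 1320 and 415 CPM at 32 h. Their Pax7 stood at 83.1 and 294 CPM at 16 h and at 51.7 and 293 CPM at 32 h. Each result on 0.5 to 4 h therefore rests on unlike libraries, as do those on 16 and 32 h, though less so in Myod1. Values are given library by library or, for some genes, as the range and median of the 8 early libraries.

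Nfkb1 encodes p105, the precursor of the p50 subunit and itself an IkB-like inhibitor. Uninjured cells held 57.9 and 56.6 CPM. Injured cells held 47.8 and 1455 CPM after 0.5 h, 39.8 and 791 CPM after 1 h, 658 and 55.5 CPM after 2 h, 96.8 and 958 CPM after 4 h, 851 and 799 CPM after 8 h, 209 and 117 CPM after 16 h, 243 and 42.1 CPM after 32 h and 37.3 and 32.6 CPM after 60 h. In each of the 4 early groups the library high in Myod1 was also the one high in Nfkb1, while the other library stayed between 39.8 and 96.8 CPM, close to uninjured cells. With so wide a spread the early difference did not pass the test: the mean of the 4 early groups was 3.11 ± 1.53 (SE) above uninjured cells on the log2 scale (edgeR quasi-likelihood test, adjusted p = 0.157). At 8 h, where both libraries were high, the log2 fold change was 3.82 ± 1.72 (adjusted p = 0.106). That error is estimated over all 18 libraries to 60 h, the split early groups included. It is not the spread of the 8 h and uninjured libraries alone. DESeq2 called both differences (adjusted p = 0.0224 for the early mean and 0.0204 at 8 h), as did the edgeR fit without a filter on low counts (0.0138 and 0.00511), and the fit on all 30 libraries called the one at 8 h (0.0440). Among the 15 groups the 2 libraries of oQSC cells averaged highest, at 951 CPM, and those at 60 h lowest, at 34.9 CPM.

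**Figure D1:**
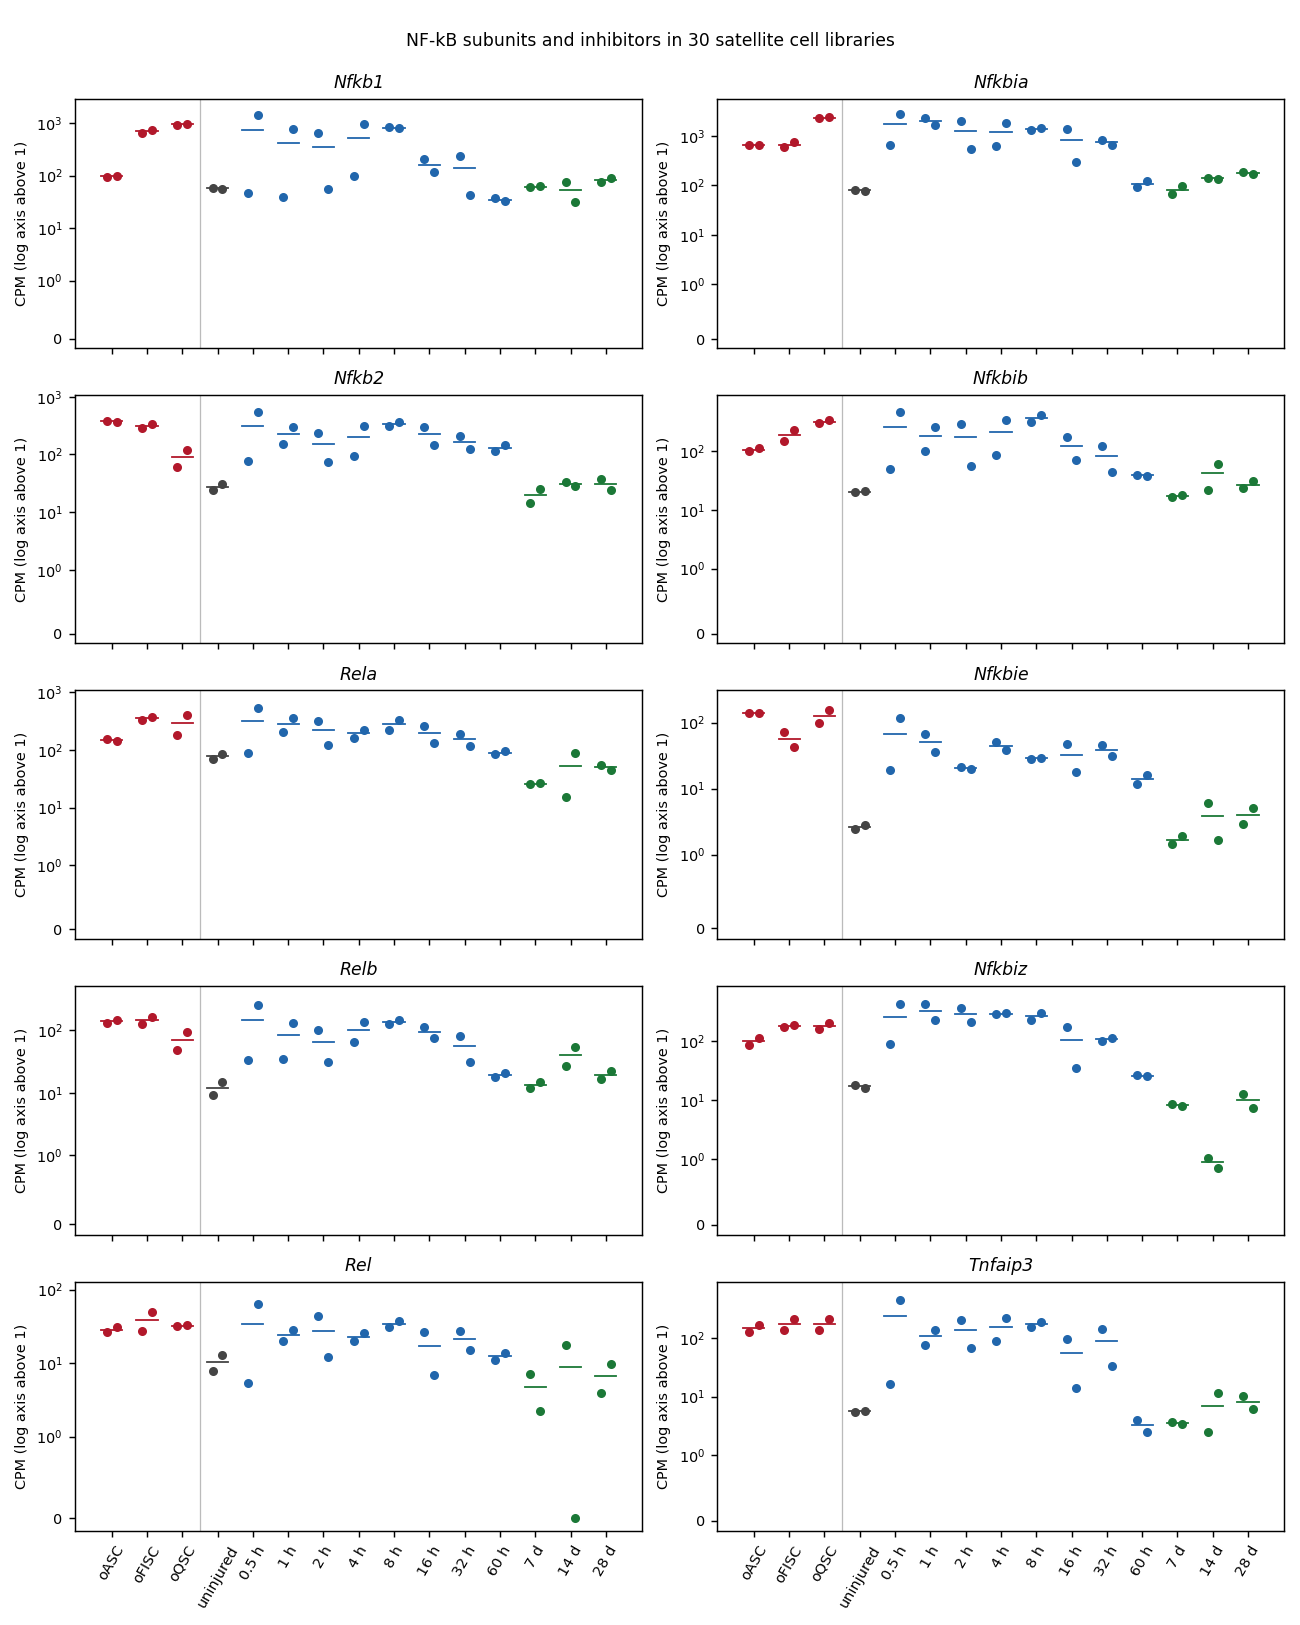
CPM of each of the 10 genes (y axis, log above 1 CPM) in 15 groups (x axis), with 1 point per library and a line at the mean of 2 libraries; old cells are red, uninjured younger cells grey, injury times to 60 h blue and regeneration green. Points of a group lie far apart at 0.5 to 4 h, most of all for Nfkb1, and close together in uninjured cells, at 8 h and at 60 h for most genes.

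Nfkbia encodes IkB-alpha, the inhibitor that NF-kB itself induces in a fast feedback loop. Uninjured cells held 81.2 and 77.6 CPM, and injured cells held 665 and 2797 CPM after 0.5 h, 2306 and 1698 CPM after 1 h, 1963 and 554 CPM after 2 h, 625 and 1791 CPM after 4 h and 1332 and 1436 CPM after 8 h. All 10 of these injured libraries lay above both uninjured ones, those low in Myod1 included. Later libraries held 1360.1 and 292 CPM after 16 h, 821 and 664 CPM after 32 h and 90.7 and 122 CPM after 60 h, so the level at 60 h was close to that of uninjured cells. The mean of the early groups exceeded uninjured cells by 4.25 ± 0.85 (SE) on the log2 scale (edgeR, adjusted p = 0.00474), and 60 h cells fell by 3.83 ± 0.83 relative to that early mean (adjusted p = 0.00387). Fewer cells that express a gene and less RNA per cell cannot be told apart in such bulk libraries.

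Nfkbiz, which encodes the nuclear protein IkB-zeta that helps NF-kB activate a later wave of genes, followed the same course. It stood at 18.01 and 15.8 CPM in uninjured cells, then at 87.9 and 418 CPM after 0.5 h, 418 and 228 CPM after 1 h, 360 and 207 CPM after 2 h, 279 and 290 CPM after 4 h, 221 and 294 CPM after 8 h, 173 and 35.0 CPM after 16 h, 99.5 and 111 CPM after 32 h and 26.2 and 25.2 CPM after 60 h. The 2 libraries at 1 h and at 4 h show that a library low in Myod1 could hold as much Nfkbiz as its partner. Its early mean rose by 4.06 ± 0.75 (SE, edgeR adjusted p = 0.00309) on the log2 scale and its 60 h level fell by 3.47 ± 0.72 relative to that mean (adjusted p = 0.00301).

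**Figure D2:**
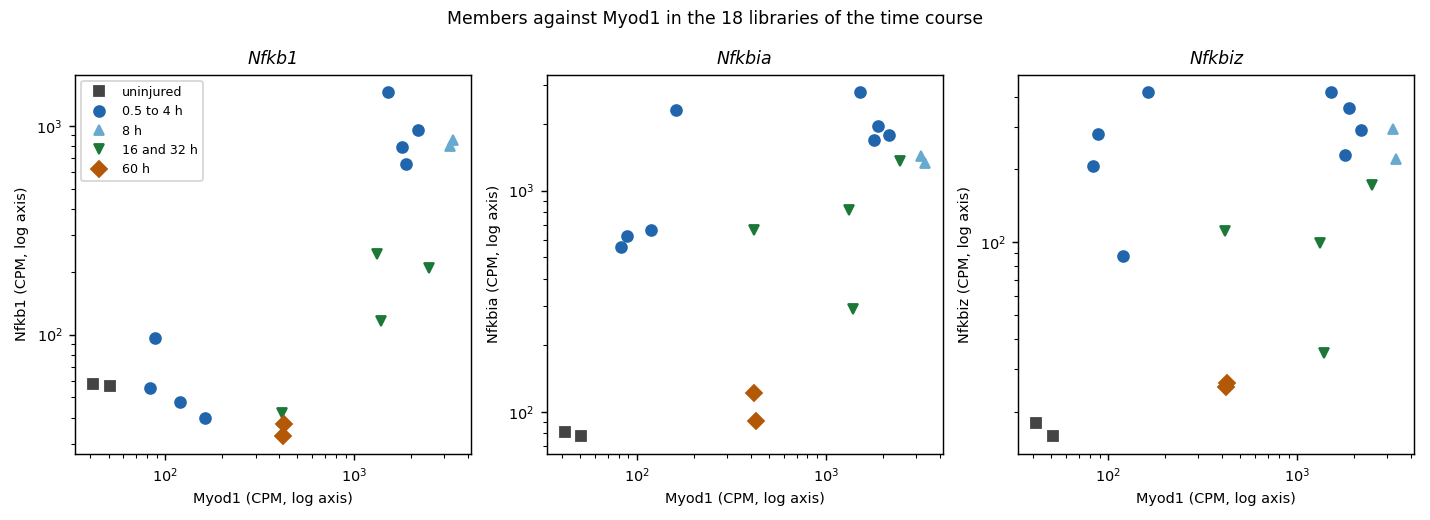
CPM of Nfkb1, Nfkbia and Nfkbiz (y axes, log) against CPM of Myod1 (x axis, log) in the 18 libraries of the time course to 60 h, 1 point per library. Among the 8 libraries of 0.5 to 4 h (blue circles), Nfkb1 is low wherever Myod1 is low, whereas Nfkbia and Nfkbiz lie above the uninjured libraries (grey squares) throughout.

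Tnfaip3, which encodes the ubiquitin-editing enzyme A20, a brake on signalling from cytokine receptors to the IkB kinases, held 5.51 and 5.67 CPM in uninjured cells. It reached 16.6 and 444 CPM after 0.5 h, 75.4 and 138 CPM after 1 h, 198 and 68.0 CPM after 2 h, 86.7 and 214 CPM after 4 h, 154 and 185 CPM after 8 h, 94.5 and 14.0 CPM after 16 h and 141 and 32.6 CPM after 32 h. At 60 h it stood at 4.00 and 2.51 CPM, below both uninjured libraries. The early mean rose by 4.73 ± 1.29 (SE) on the log2 scale (edgeR, adjusted p = 0.0212), and 60 h cells fell by 5.52 ± 1.36 relative to it (adjusted p = 0.00824).

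Nfkbie encodes IkB-epsilon, which holds RELA and REL dimers. It was scarce in uninjured cells, at 2.48 and 2.84 CPM (27 and 61 counts), and present in all injured libraries to 60 h. Its levels were 19.4 and 115 CPM after 0.5 h, 67.1 and 35.5 CPM after 1 h, 21.5 and 20.1 CPM after 2 h, 50.2 and 38.1 CPM after 4 h, 28.2 and 29.1 CPM after 8 h, 47.0 and 17.8 CPM after 16 h, 45.3 and 31.6 CPM after 32 h and 11.9 and 16.1 CPM after 60 h. Its early mean rose by 3.97 ± 0.70 (SE) on the log2 scale (edgeR, adjusted p = 0.00232). Nfkbie was the 1 member of 10 called at 60 h against uninjured cells (2.38 ± 0.70, adjusted p = 0.0246), in a comparison that called 15.5% of all genes higher. That call was lost without any 1 of the 4 libraries involved: the log2 fold change was 2.59 and 2.16 without the 60 h libraries 1 and 2 (adjusted p = 0.0516 and 0.0965) and 2.30 and 2.49 without the uninjured libraries 1 and 2 (0.123 and 0.107). At 60 h 6 of 10 monocyte and macrophage markers were also called higher than in uninjured cells, and their part was not tested.

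Nfkbib encodes IkB-beta, a slower-acting cytoplasmic inhibitor. It held 19.9 and 21.3 CPM in uninjured cells, between 50.2 and 467 CPM over the 8 libraries of 0.5 to 4 h (median 180 CPM), 324 and 419 CPM after 8 h and 38.9 and 38.8 CPM after 60 h. The early mean rose by 3.31 ± 1.01 (SE, edgeR adjusted p = 0.0333) on the log2 scale. As with Nfkb1, its higher library at each early time was the one high in Myod1, but the lower ones also lay above uninjured cells. The higher library at each early time was likewise the one high in Myod1 for Tnfaip3, Nfkb2, Relb, Rela and Rel.

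Among the other subunits, both partners of the non-canonical route rose in the early mean. Nfkb2, the precursor of p52, held 23.7 and 31.2 CPM in uninjured cells, from 74.8 to 546 CPM (median 194 CPM) at 0.5 to 4 h, 318 and 369 CPM after 8 h, 298 and 148 CPM after 16 h, 211 and 122 CPM after 32 h and 117 and 145 CPM after 60 h. Relb, whose protein pairs with p52, held 9.10 and 15.02 CPM in uninjured cells, from 31.7 to 257 CPM (median 83.3 CPM) at 0.5 to 4 h and 18.2 and 20.9 CPM after 60 h. Every early library of both genes lay above the uninjured ones, and the early means rose by 2.97 ± 0.81 for Nfkb2 and 2.97 ± 0.87 for Relb (log2 fold change ± SE, edgeR adjusted p = 0.0211 and 0.0287). At 60 h Nfkb2 remained above uninjured cells in both libraries, by 2.25 ± 0.87 on the log2 scale, which did not pass the test (adjusted p = 0.0691) but was called by DESeq2 (0.0290), without the filter on low counts (0.0108) and in the fit on all 30 libraries (0.0270).

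Rela, the main activating subunit, and Rel, a subunit best known from lymphocytes, were called at none of the 8 times to 60 h. Rela held 68.5 and 84.6 CPM in uninjured cells, from 88.2 to 533 CPM (median 214 CPM) at 0.5 to 4 h and 83.1 and 95.0 CPM after 60 h. Rel held 7.72 and 12.8 CPM in uninjured cells, from 5.37 to 63.6 CPM (median 23.0 CPM) at 0.5 to 4 h and 11.1 and 13.7 CPM after 60 h. The early means differed from uninjured cells by 1.68 ± 0.63 for Rela and 1.38 ± 0.80 for Rel on the log2 scale, neither past the threshold (SE, edgeR adjusted p = 0.0720 and 0.227). DESeq2 and the fit without a filter called Rela (adjusted p = 0.0201 and 0.0164) and not Rel (0.161 and 0.106).

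In all, 7 of the 10 members rose in the early mean, where 12.6% of 22479 genes tested were called higher. The median log2 fold change of the members was 3.21, against 0.21 over all genes, and all 10 were above 0. By single times, 6 members were called higher after 0.5 h, where 6.88% of all genes were. The count was 4 after 1 h (6.57% of genes), 3 after 2 h (6.32%), 4 after 4 h (7.18%), 7 after 8 h (16.1%), 5 after 16 h (14.2%) and 3 after 32 h (14.1%). Nfkbia, Nfkbie and Nfkbiz were called at each time from 0.5 to 32 h, in comparisons that share the uninjured libraries. Leaving out a library leaves 1 in its group, and the calls that other genes lose in such fits are not given. The losses listed next are therefore not shown to be particular to the members. Of these 21 calls, 20 were lost without uninjured library 1 (adjusted p from 0.0504 to 0.165), all but that of Nfkbiz at 8 h, and 16 without uninjured library 2 (0.0526 to 0.147). Without 1 of the injured libraries 11 were lost: 5 of Nfkbia, 2 of Nfkbie and 4 of Nfkbiz. Among them, Nfkbiz at 16 h had a log2 fold change of 1.03 without 16 h library 1 (adjusted p = 0.413), and Nfkbia one of 1.86 (0.220). Nfkbie and Nfkbiz kept the early call whichever of the 10 libraries was left out. Without uninjured library 1 the other 5 called members had adjusted p from 0.0648 (Nfkbia, log2 fold change 4.29) to 0.199 (Relb, 2.66), with Tnfaip3 at 0.153, Nfkb2 at 0.162 and Nfkbib at 0.191. Without uninjured library 2 they had 0.0578 for Nfkbia, 0.117 for Nfkb2, 0.122 for Relb, 0.140 for Tnfaip3 and 0.171 for Nfkbib.

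Relative to the early mean, 60 h cells showed 3 members lower (Nfkbia, Nfkbiz and Tnfaip3), where 15.3% of all genes were called lower. Nfkbia fell short of the call without the 60 h library 1 (log2 fold change -3.63, adjusted p = 0.0557), and Tnfaip3 without the 60 h library 1 or 2 (-5.89 and -5.21, adjusted p = 0.0667 and 0.0866). A test for any difference among the 9 groups to 60 h called Nfkbia, Nfkbie and Nfkbiz (edgeR, adjusted p = 0.0189, 0.0189 and 0.0115), as it did 24.7% of all genes.

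Summed markers of other cells also differed between times, not always in step with the members, and their part in the results was not tested. The 7 neutrophil markers summed to 2.29 to 55.1 CPM at 0.5 to 4 h, against 1.19 to 1.49 CPM in uninjured cells. Of the 6 tested, 4 were called higher in the early mean and 0 lower, and Ly6g was at 0 in all these libraries. The 10 monocyte and macrophage markers summed to 12.2 to 137 CPM at 0.5 to 4 h, 108 to 530 CPM after 32 h and 47.0 to 220 CPM after 60 h, against 4.32 to 5.79 CPM in uninjured cells. The 9 markers of satellite cells and myoblasts summed to 3541 to 6744 CPM at 0.5 to 4 h and 3760 to 3778 CPM in uninjured cells. In the early mean 5 of 8 endothelial markers, 4 of 7 markers of fibro-adipogenic cells and fibroblasts, 4 of 7 muscle fibre markers, 1 of 10 monocyte and macrophage markers, 1 of 6 pericyte and smooth muscle markers and 1 of 9 satellite cell and myoblast markers were called higher. Of the muscle fibre and the satellite cell lists 1 marker each was called lower, and 0 of 4 lymphocyte markers were called. The endothelial markers summed to 92.3 to 274 CPM at 0.5 to 4 h, against 59.9 to 86.0 CPM in uninjured cells, those of fibro-adipogenic cells to 404 to 1060.1 CPM, against 595 to 811 CPM, and those of muscle fibres to 45.5 to 193 CPM, against 81.4 to 155 CPM.

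**Figure D3:**
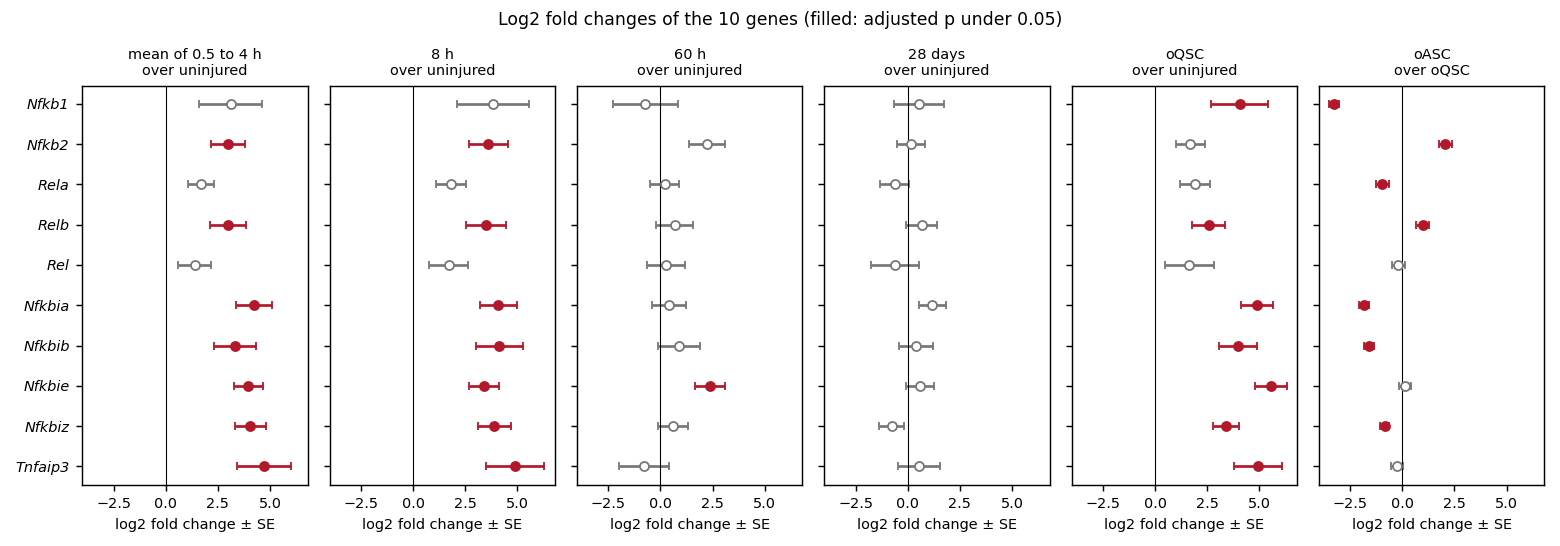
Log2 fold change with its standard error (x axis) of each of the 10 genes (rows) in 6 comparisons; filled red points passed an adjusted p of 0.05 and open grey points did not. The first 2 panels lie right of 0 for all 10 genes, the panel for 60 h lies between -0.79 and 0.91 for the 8 genes other than Nfkbie and Nfkb2 and that for 28 days between -0.77 and 1.17, and the last panel splits to both sides.

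The balance of the 2 precursor genes, Nfkb1 and Nfkb2, differed between times. Counts of Nfkb2 per count of Nfkb1 within a library, a ratio that no scaling between libraries affects, were 0.410 and 0.552 in uninjured cells, 0.374 and 0.461 at 8 h, 1.42 and 1.26 at 16 h, 0.871 and 2.90 at 32 h and 3.13 and 4.47 at 60 h. Libraries 1 and 2 held ratios of 1.58 and 0.375 after 0.5 h, 3.84 and 0.377 after 1 h, 0.357 and 1.35 after 2 h and 0.988 and 0.320 after 4 h. By 7 days the ratio was 0.243 and 0.403, below both uninjured libraries. Levels of different genes can be compared only per length, so reads were also divided by the length of the merged exons. On that scale Nfkb1 supplied 5.0% and 3.7% of the summed reads per kb of the 5 subunits at 60 h and 13.5% and 10.5% in uninjured cells. Nfkb2 supplied 41.2% and 43.7% at 60 h and 14.5% and 15.3% in uninjured cells, and Rela 43.8% and 42.6% at 60 h and 62.6% and 61.7% in uninjured cells. With the longest transcript as the length (4149 against 12061 bases for Nfkb1), the share of Nfkb1 became 11.7% and 8.8% at 60 h and 28.4% and 23.1% in uninjured cells.

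**Figure D4:**
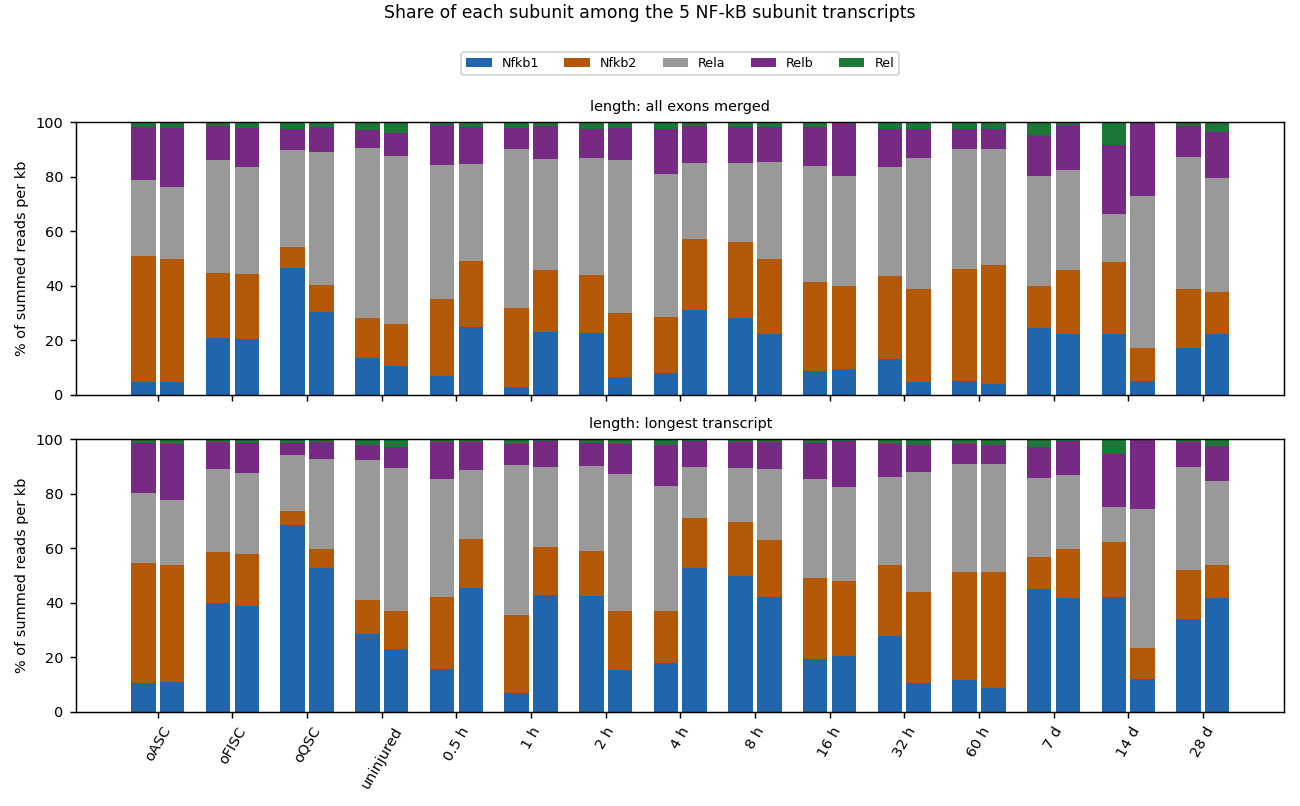
Share of each of the 5 subunit transcripts in their summed reads per kb (y axis, percent), 1 bar per library in 15 groups (x axis), with merged exons (top) or the longest transcript (bottom) as the length. Nfkb2 takes its widest shares at 60 h and in oASC cells, and Nfkb1 its widest in oQSC library 1, with 46.3% in the top panel. In that panel Nfkb1 takes 30.5% in oQSC library 2 and 31.0% in 4 h library 2.

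The ratio of inhibitor to subunit also differed between times. Nfkbia counts per Rela count were 1.18 and 0.917 in uninjured cells, 3.85 to 11.2 over the 8 libraries of 0.5 to 4 h, 5.98 and 4.41 at 8 h, and 1.09 and 1.29 at 60 h. Every library of 0.5 to 8 h lay above those of uninjured and 60 h cells. Per length of merged exons, Nfkbia made up most of the 3 cytoplasmic IkB transcripts in all 30 libraries, from 72.1% at 60 h (library 1) to 95.4% at 1 h (library 1).

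**Figure D5:**
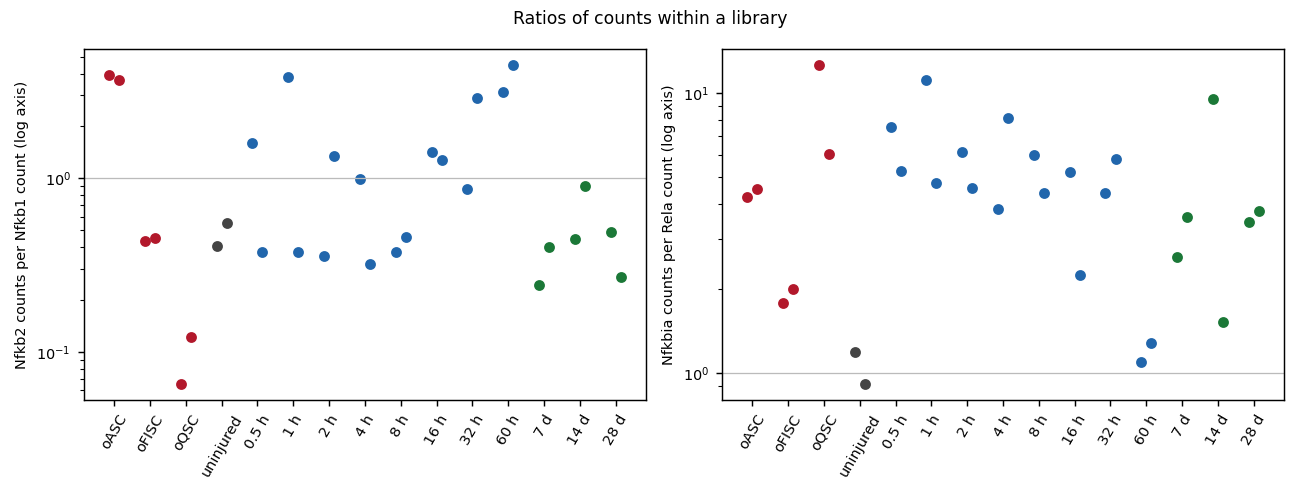
Counts of Nfkb2 per count of Nfkb1 (left) and of Nfkbia per count of Rela (right) within each library (y axes, log), 1 point per library in 15 groups (x axis). The left panel reaches 3.13 to 4.47 at 60 h and in oASC cells, and 3.84 in 1 h library 1. The right panel is near 1 in uninjured and 60 h cells.

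Ordered by mean CPM over the 15 groups, 5 members were highest in old cells without injury or labelled oFISC. Nfkb1 and Nfkbia were highest in oQSC cells, and Rela, Relb and Rel in oFISC cells. Nfkb2 and Nfkbie were highest in oASC cells, Nfkbib at 8 h, Nfkbiz at 1 h and Tnfaip3 at 0.5 h. For Nfkb1, both oQSC libraries lay above those of 8 h cells, the group next by mean. For Nfkb2, both oASC libraries lay above those of 8 h cells, also next by mean. Even so, 0.5 h library 2 held more of both genes, at 1455 CPM of Nfkb1 and 546 CPM of Nfkb2. For the other 8 genes the libraries of the leading groups overlapped. Below them, the libraries of neighbouring groups from 0.5 to 32 h overlapped for most genes, so these times cannot be ranked. The lowest groups were 7-day cells for Nfkb2, Rela, Rel, Nfkbib and Nfkbie, 14-day cells for Nfkbiz, 60 h cells for Nfkb1 and Tnfaip3, and uninjured cells for Relb and Nfkbia.

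During later regeneration the members were back at low levels. At 7, 14 and 28 days Nfkbia held 65.6 and 96.4, 144 and 136, and 190 and 167 CPM, and Nfkb1 held 60.2 and 63.4, 74.3 and 31.8, and 75.9 and 91.1 CPM. Tnfaip3 held 3.66 and 3.45, 2.48 and 11.6, and 10.3 and 6.17 CPM, and Rel had 0 counts in library 2 at 14 days, where 3 counts would be 0.236 CPM. Against 60 h cells, 7-day cells were lower in Nfkb2 (20.1 ± 7.74 and 131 ± 20.3 CPM, SD, n = 2 libraries each) by 2.70 ± 0.72 on the log2 scale (edgeR, adjusted p = 0.0128). They were also lower in Nfkbie (1.69 ± 0.32 and 14.0 ± 2.99 CPM) by 3.05 ± 0.70 (adjusted p = 0.0044), and 8.86% of 28823 genes were called lower in that comparison. The call of Nfkb2 was lost without 60 h library 2 (log2 fold change -2.61, adjusted p = 0.0679) and without 7-day library 1 or 2 (-2.44 and -3.22, adjusted p = 0.165 and 0.0596), and that of Nfkbie without 7-day library 1 (-2.95, adjusted p = 0.0730).

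Against uninjured cells, Nfkbiz was the 1 member called at 7, 14 or 28 days. It fell to 1.04 and 0.865 CPM at 14 days (13 and 11 counts), against 18.01 and 15.8 CPM in uninjured cells, a log2 fold change of -4.14 ± 0.70 (SE, edgeR adjusted p = 0.000749), while 8.42 and 8.04 CPM were counted at 7 days and 12.4 and 7.34 CPM at 28 days. At 14 days 6.33% of all genes were called lower than in uninjured cells. The 14-day value was also below the 7-day value, by 3.14 ± 0.81 on the log2 scale, which did not pass the test within that table (adjusted p = 0.318). DESeq2 and the fit on all 30 libraries called it (adjusted p = 0.00740 and 0.0146). No member was called at 7 days (11.2% of genes called in either direction) or 28 days (6.49%) against uninjured cells, nor at 14 days (0.0531%) or 28 days (0.295%) against 7 days. In these comparisons edgeR put 1, 0, 4 and 1 members at an unadjusted p under 0.05, and DESeq2 called 0, 0, 1 and 1. The share of all genes that DESeq2 called is not given, so its counts show nothing particular to the members. Over all genes, edgeR put 7261 and 6253 of 28823 there against uninjured cells at 7 and 28 days. Against 7 days it put 2130 and 2356 of 16954 there at 14 and 28 days. Regeneration and uninjured cells lie in separate count tables, so table and group cannot be told apart.

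In old cells the members stood high without injury. Nfkbia held 2295 and 2396 CPM in oQSC cells, against 81.2 and 77.6 CPM in uninjured younger cells, and Nfkb1 held 932 and 969 CPM, against 57.9 and 56.6 CPM. Nfkbie held 99.0 and 153 CPM in oQSC cells, against 2.48 and 2.84 CPM in uninjured cells, and Tnfaip3 held 134 and 211 CPM, against 5.51 and 5.67 CPM. In all, 7 of 10 members were called higher, as were 12.3% of all genes, and all 10 lay above uninjured cells in both libraries. The log2 fold changes were 5.56 ± 0.76 for Nfkbie, 4.95 ± 1.16 for Tnfaip3, 4.88 ± 0.75 for Nfkbia, 4.05 ± 1.36 for Nfkb1, 3.97 ± 0.92 for Nfkbib, 3.40 ± 0.64 for Nfkbiz and 2.56 ± 0.77 for Relb (SE, edgeR adjusted p from 2.75e-05 for Nfkbie to 0.0376 for Nfkb1). The median over all genes in this comparison was 0.49.

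Age and count table cannot be told apart in these values. Myod1 stood at 1069.6 and 1536 CPM in oQSC cells, against 41.4 and 50.8 CPM in uninjured younger cells, and Pax7 at 84.5 and 72.7 CPM, against 1746 and 1555 CPM. The macrophage markers summed to 128 to 159 CPM in oQSC cells and the neutrophil markers to 11.3 to 12.6 CPM, with Ly6g and Itgam at 0 in both libraries. Called higher than in uninjured cells were 5 of 10 macrophage, 2 of 6 neutrophil, 4 of 8 endothelial, 1 of 6 pericyte, 3 of 7 fibro-adipogenic and 5 of 7 muscle fibre markers, with 1 marker of each of the last 2 lists called lower. The part of these differences in the members' levels was not tested. Nfkbia, Nfkbie and Nfkbiz kept their calls whichever library was left out. Nfkb1 lost its call without any 1 of the 4 libraries (log2 fold change 4.06 to 4.12, adjusted p from 0.0984 without oQSC library 2 to 0.209 without uninjured library 2), and Relb without oQSC library 2 (2.06, 0.157), uninjured library 1 (2.31, 0.190) or uninjured library 2 (3.002, 0.0895). Nfkbib and Tnfaip3 lost theirs without uninjured library 1 (adjusted p = 0.0603 and 0.0621) or 2 (0.0541 and 0.0591).

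Within the old cells, injury was accompanied by an exchange between the 2 precursor genes. On the scale of the old table alone, Nfkb1 fell to 82.0 and 85.6 CPM in oASC cells, against 812 and 821 CPM in oQSC cells, a log2 fold change of -3.28 ± 0.22 (SE, edgeR adjusted p = 1.74e-05). Nfkb2 rose to 324 and 315 CPM in oASC cells, against 53.2 and 99.6 CPM in oQSC cells, a log2 fold change of 2.06 ± 0.30 (adjusted p = 0.000873). Both lie far outside the spread of their libraries, and both calls held whichever of the 4 libraries was left out. Nfkb2 counts per Nfkb1 count were 3.95 and 3.67 in oASC cells, against 0.066 and 0.121 in oQSC cells. Per length of merged exons, Nfkb1 made up 4.4% and 4.7% of subunit reads in oASC cells and 46.3% and 30.5% in oQSC cells, and Nfkb2 46.2% and 45.2% in oASC cells and 8.0% and 9.7% in oQSC cells.

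Of the other members, 5 were also called between oASC and oQSC cells, where 19.0% of 30099 genes were called higher and 21.3% lower. Relb rose by 0.97 ± 0.31 (log2, adjusted p = 0.0332). Nfkbia fell by 1.85 ± 0.24 (0.000417), Nfkbib by 1.61 ± 0.25 (0.00119), Rela by 0.96 ± 0.33 (0.0451) and Nfkbiz by 0.85 ± 0.22 (0.0142). Over all genes the median was -0.33 on this scale. Rela lost its call without oASC library 1 or 2 or oQSC library 2 (log2 fold change -0.99, -0.90 and -0.29, adjusted p = 0.149, 0.184 and 0.410), Relb without oASC library 1 or 2 or oQSC library 1 (1.07, 0.90 and 0.60, adjusted p = 0.0854, 0.138 and 0.150) and Nfkbiz without oASC library 1 or oQSC library 2 (-0.65 and -0.68, adjusted p = 0.176 and 0.0942). Fitted with all 30 libraries, whose common dispersion was 0.316 against 0.0878 in the old table alone, 1 of the 7 calls held (Nfkb2), while the log2 fold changes of the others were -3.28 for Nfkb1, -1.84 for Nfkbia, -1.60 for Nfkbib, -0.96 for Rela, -0.85 for Nfkbiz and 0.98 for Relb. Markers of other cells differed too, and their part was not tested. In oASC against oQSC cells 7 of 8 endothelial markers (summed 21.6 to 31.0 CPM in oASC and 139 to 176 CPM in oQSC cells), 4 of 6 pericyte and smooth muscle markers and 3 of 7 fibro-adipogenic markers were called lower. The macrophage markers, 2 called higher and 2 lower, summed to 81.8 to 107 CPM in oASC and 128 to 159 CPM in oQSC cells.

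Cells labelled oFISC differed from oQSC cells in 5 members. On the old-table scale Nfkbia fell to 381 and 497 CPM in oFISC cells, against 1998 and 2029 CPM in oQSC cells, by 2.20 ± 0.24 (log2 ± SE, edgeR adjusted p = 0.00026). Nfkbie fell by 1.54 ± 0.29 (0.00395), Nfkbib by 1.13 ± 0.25 (0.00841) and Nfkb1 by 0.83 ± 0.21 (0.0140), while Nfkb2 rose by 1.41 ± 0.30 (0.00699). In this comparison 22.6% of all genes were called lower and 19.3% higher, and the median of all genes was 0.52, so falls are larger relative to it. The call of Nfkb1 was lost without oQSC library 2 (-0.84, adjusted p = 0.0514). Scaled with all 30 libraries, the log2 fold changes became -1.81 for Nfkbia, -1.15 for Nfkbie, -0.75 for Nfkbib, -0.44 for Nfkb1 and 1.79 for Nfkb2, and none passed the test there. Of the markers of other cells, whose part was not tested, 5 of 10 macrophage markers were called lower and 3 higher (summed 29.4 to 43.9 CPM in oFISC and 128 to 159 CPM in oQSC cells), and 4 of 7 fibro-adipogenic and 4 of 6 pericyte markers were called lower. The muscle fibre markers, 3 of 7 called higher, summed to 655 CPM in oFISC library 1 and 52.2 CPM in library 2, against 110 to 120 CPM in oQSC cells.

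Cells labelled oASC differed from oFISC cells in 3 members. Nfkb1 fell to 82.0 and 85.6 CPM in oASC cells, against 422 and 498 CPM in oFISC cells (log2 fold change -2.46 ± 0.22, adjusted p = 4.78e-05). Nfkbie rose to 118 and 120 CPM in oASC cells, against 45.9 and 28.3 CPM in oFISC cells (1.68 ± 0.29, adjusted p = 0.00152), and Rela was lower, at a log2 fold change of -0.86 ± 0.33 (0.0442). In this comparison 39.7% of genes were called lower and 27.3% higher, with a median of -1.05, so the difference in Rela was smaller than the median of all genes. Rela lost its call without any 1 of the 4 libraries (log2 fold change -0.73 to -0.93, adjusted p from 0.102 without oFISC library 1 to 0.190 without oASC library 2). Fitted with all 30 libraries, none of the 3 calls held, at log2 fold changes of -2.83 for Nfkb1, -1.24 for Rela and 1.29 for Nfkbie. Called lower among markers were 7 of 8 endothelial and 4 of 6 pericyte ones, and 6 of 10 macrophage markers were called higher and 2 lower; their part was not tested.

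Injured cells of old and younger muscle were compared at 2.5 days and 60 h. Tnfaip3 held 125 and 167 CPM in oASC cells, against 4.00 and 2.51 CPM in 60 h cells, a log2 fold change of 5.49 ± 1.19 (SE, edgeR adjusted p = 0.0172). Nfkbie held 137 and 141 CPM in oASC cells, against 11.9 and 16.1 CPM (3.32 ± 0.67, adjusted p = 0.0114), and Nfkbia 655 and 656 CPM, against 90.7 and 122 CPM (2.62 ± 0.68, adjusted p = 0.0436). These 3 of 10 members were called higher, where 1.17% of all genes were. All 10 lay higher in both oASC libraries, and Relb had the next smallest adjusted p (2.85 ± 0.78, adjusted p = 0.0572). The 3 calls were lost without any 1 of the 4 libraries, with adjusted p from 0.0835 (Nfkbie without oASC library 1) to 0.423 (Nfkbia without 60 h library 1). The monocyte and macrophage markers summed to 81.8 to 107 CPM in oASC cells and 47.0 to 220 CPM in 60 h cells, and 1 of 7 muscle fibre markers was the only marker of the 8 lists called.

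The test of whether injury changed the members differently in old and younger cells called none of the 10, while it called 7.28% of all genes. Nfkbia, Nfkbib and Nfkbie had an unadjusted edgeR p under 0.05 there, as did 6151 of 28823 genes. DESeq2 called 0 members, and the share of all genes that it called is not given. For Nfkbia, Nfkbib and Nfkbie the differences in log2 fold change were -2.26 ± 0.91, -2.51 ± 1.17 and -2.24 ± 0.90 (SE, edgeR adjusted p = 0.147, 0.217 and 0.144). For Nfkb1 the difference was -2.56 ± 1.73 (adjusted p = 0.439). In each case the log2 fold change from uninjured to injured cells was lower in old than in younger cells. That does not mean a fall at both ages. Mean Nfkbie went from 2.66 to 14.0 CPM in younger cells and from 126 to 139 CPM in old cells. The means of Nfkbia and Nfkbib rose in younger and fell in old cells, and that of Nfkb1 fell in both.

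Other genes of the pathway were counted in 5 lists, which were chosen with earlier results of these data known. Their counts describe the listed genes and are no independent test of the pathway. Of ligands, Tnf and Il1b were called higher in the early mean among 6 tested, and both had 0 counts in the 2 uninjured libraries. Tnf had 40 and 21 counts at 0.5 h, 49 and 167 at 4 h and 179 and 460 at 32 h. Il1b had 0 and 35 counts at 0.5 h, 91 and 94 at 4 h and 479 and 185 at 32 h, and at 4 h it was at least 42.6-fold higher than a floor of 3 counts over both uninjured libraries. Levels stayed low, between 0 and 7.53 CPM per library at 0.5 to 4 h. In the early mean 12.6% of all genes were called higher and 10.4% lower. Of 20 receptors and adaptors, 2 were called higher, a share no larger than that of all genes, and none lower: Tnfrsf12a, the receptor of the cytokine TWEAK, by 6.36 ± 1.08 and Myd88, the adaptor of Toll-like and interleukin 1 receptors, by 3.66 ± 0.47 (log2 ± SE, edgeR adjusted p = 0.00191 and 0.000376). Of 11 kinases and their partners, Map3k8 (3.54 ± 0.67, adjusted p = 0.00352) and Tbk1 (2.36 ± 0.54, 0.00948) rose and Tab3 (-1.36 ± 0.33, 0.0125) fell, while the median of the list was -0.0041, against 0.21 for all genes. None of the genes of the IkB kinase complex itself was among them.

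Of 17 further inhibitors and modulators, 7 rose in the early mean and none fell, with a median of 1.38. They included Birc2 (1.93 ± 0.41, adjusted p = 0.00664), which encodes a ubiquitin ligase of the TNF receptor, and Tnip2 (1.55 ± 0.42, adjusted p = 0.0211), which encodes a partner of A20. Of 17 classical targets tested, 10 rose and none fell. Gadd45b rose by 6.91 ± 0.82 (edgeR adjusted p = 0.000236), Ier3 by 5.87 ± 0.91 (0.00118), Cxcl1 by 7.38 ± 1.61 (0.00733) and Irf1 by 2.95 ± 0.71 (0.0122). The median log2 fold change of the targets was 5.73 with genes of no count in uninjured cells at their floor. At 60 h 3 of 17 targets were called higher (Bcl2l1, Gadd45b and Ier3), a share near the 15.5% of all genes called higher there. Traf1, an NF-kB target that encodes a signalling adaptor, stood out among the modulators with 34.7 ± 1.37 CPM after 60 h and 0.138 ± 0.195 CPM in uninjured cells (SD, n = 2 libraries each, edgeR adjusted p = 0.00403).

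In oQSC against uninjured cells, where 12.3% of all genes were called higher and 9.31% lower, 13 of 17 targets were called higher and none lower, as were 7 of 20 receptors and adaptors with 2 lower, and 6 of 17 modulators with none lower. Map3k8 was higher by 6.39 ± 0.98 (log2 ± SE, edgeR adjusted p = 9.87e-05), Myd88 by 4.77 ± 0.62 (1.55e-05) and Birc3 by 4.77 ± 0.69 (4.86e-05). In oASC against oQSC cells, where 19.0% of all genes were called higher and 21.3% lower, the lists split, and counts such as 5 of 20 or 3 of 17 higher lie near that background. Among targets 3 rose and 7 fell, with Csf1, which encodes the macrophage growth factor M-CSF, up by 3.37 ± 0.37 (adjusted p = 0.000188) and Il6 down (-3.36 ± 0.27, 3.83e-05). Among modulators 4 rose and 6 fell, with Traf1 up by 5.41 ± 0.36 (1.65e-05) and Birc3 down (-2.80 ± 0.20, 2.29e-05). Among receptors and adaptors 5 rose and 8 fell, with Traf3, a brake on the non-canonical route, up by 3.31 ± 0.30 (7.00e-05), and among kinases 4 rose and 4 fell, with Map3k8 down (-3.91 ± 0.25, 1.33e-05).

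Across the 18 libraries of the time course, which share tables and the split described above, the genes most like each member by Pearson's r of log2 CPM were sought among 10129 genes. For Nfkb1 they were Phldb1 (r = 0.98), Grb2 and Ptpn12, for Nfkbia Yod1 (0.97), Map3k8 and Sde2, and for Nfkbiz Sat1 (0.98), Klf4 and Egr3. Those of Tnfaip3 were Skil (0.98), Il6 and Tnfaip6, those of Nfkbie Tfpi2 (0.93), Myd88 and Bcl10, and those of Nfkb2 Eif4a1 (0.97), Akirin1 and Eif4a-ps4. For Rela they were Senp2 (0.95), Sqstm1 and Zbtb11, for Relb Stx11 (0.97), Il6st and Polr3d, for Rel Pycard (0.92), Eid3 and Ppp1r10, and for Nfkbib Zbtb11 (0.98), Sqstm1 and Tgif1. Between members r ran from 0.46 for Nfkb1 with Nfkbie to 0.95 for Relb with Nfkbib and for Nfkbia with Nfkbiz, and Nfkb1 with Nfkbiz reached 0.62.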

How the data were processed

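The authors deposited whole-number counts per gene in 3 tables: 18 libraries of the first 60 h with their uninjured cells, 6 of later regeneration (7, 14 and 28 days) and 6 of old animals. Polyadenylated RNA was converted with SMART-Seq v4 and Tn5 and sequenced on a DNBSEQ-G400, per the labels' protocols. The submitters' processing notes name the mm10 build and, with no order, StringTie 1.3.3, SAMtools 1.3, HISAT2 2.1.0 and Trimmomatic 0.36; which program counted reads, with which strand setting and annotation, is not given in the sources used here. No molecular identifiers are mentioned, so amplified copies are counted and limits from low counts cover counting error only.

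Group means were compared with edgeR 4.0.16 in R 4.3.3 (quasi-likelihood F test, TMM scaling, filterByExpr with a minimum count of 10 and total of 15, limma 3.58.1, data.table version 1.17.8). Genes counted as called had a p, adjusted by Benjamini-Hochberg over the whole fit, under 0.05. There were 4 fits: 1 for each table, with 22479 genes to 60 h, 16954 in regeneration and 30099 in old cells, and a joint fit of 28823 genes over 30 libraries for comparisons between tables. The 10 members passed the filter in every fit. Standard errors are the absolute log2 fold change over the square root of F. CPM are on the scale of all 30 libraries unless the old-table scale is named. Named genes were the 10 members, up to 4 called genes with the smallest adjusted p of each pathway list, and the 3 genes most like each member, among genes with a mean of at least 5 CPM (log2 CPM, prior count 2). The members and lists were chosen with earlier results of these data known. The alternatives were RLE scaling, DESeq2 1.42.0, no filter, a replicate block, a joint fit, leaving out genes over 5% of a library and leaving out each library. The tests were checked on simulated data.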

Additional observations from a re-analysis of the deposited data

How the results depend on the processing

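Of 71 member differences called, none turned its sign in 757 alternative fits, 9 were called under every alternative and 51 under every alternative except leaving out a library; the cause of the differences below was not tested. Leaving out 1 library at a time kept 201 of 344 calls. The number of members called against uninjured cells then ranged from 0 to 8 at 0.5 h, 0 to 3 at 1 h, 0 to 4 at 2 h, 0 to 6 at 4 h, 1 to 5 at 8 h, 0 to 4 at 16 h, 0 to 1 at 32 h, 0 to 0 at 60 h and 2 to 8 for the early mean. It ranged from 1 to 8 for any change to 60 h, 1 to 8 for 60 h against the early mean, 0 to 2 for 7 days against 60 h, 1 to 2 for 14 days against uninjured cells, 5 to 5 for oFISC and 4 to 6 for oASC against oQSC cells, 2 to 3 for oASC against oFISC cells, 3 to 6 for oQSC against uninjured cells and 0 to 0 for oASC against 60 h cells and for the interaction. In the early mean Rela, not called with all libraries, had adjusted p from 0.0161 to 0.305. The log2 fold change of Nfkb1 ran from -0.26 (without 0.5 h library 2) to 4.72 at 0.5 h, from -0.52 (without 1 h library 2) to 3.79 at 1 h and from -0.043 (without 2 h library 1) to 3.60 at 2 h.

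Calls of members grew without the filter on low counts or with DESeq2, and neither lost a call. Shares of all genes called are not given for the alternatives, in this section or above. The counts therefore do not show a gain or loss particular to the members. Without the filter there were 8 members at 1 h, 7 at 2 h, 8 at 4 h, 6 at 32 h, 2 at 60 h, 9 for any change to 60 h, 8 for 60 h against the early mean, 4 for 7 days against 60 h, 1 at 7 days and 2 at 14 days against uninjured cells, 7 for oASC against 60 h cells and 4 for the interaction. DESeq2 called 7 members at 1, 2 and 4 h each, 5 at 32 h, 2 at 60 h, 7 for any change, 8 for 60 h against the early mean, 1 for 14 or 28 days against 7 days and 5 for oASC against oFISC cells. The fit on all 30 libraries called 7 members at 1 h, 6 at 2 h, 7 at 4 h, 6 at 32 h, 2 at 60 h, 7 for any change and for 60 h against the early mean and 1 for 14 against 7 days. In old cells it lost 14 calls, leaving 0 for oFISC and 1 for oASC against oQSC cells and 0 for oASC against oFISC cells. RLE size factors lost 3 calls, and gave 5 members for 60 h against the early mean and for oASC against oFISC cells. Leaving out genes over 5% of a library gave 5 members at 32 h and lost Nfkbia in oASC against 60 h cells.

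Replicate numbers did not pair the samples in one direction throughout. Deviations from the group means correlated above 0.1 in 6 of 36 pairs of groups in the time course. There r ran from -0.671 to 0.614, so same-numbered libraries deviated alike in some pairs of groups and oppositely in others. In regeneration and in old cells 0 of 3 pairs each lay above 0.1. With the replicate block the counts were 4 at 0.5 h, 3 at 1 h and 3 at 4 h, and 4 calls were lost. With 2 libraries a group, and members at 2.48 CPM and below in some libraries, a p above the threshold shows only that a difference was not detectable at this replication and depth.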
